A study of Mus musculus with 8 samples.

Results

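The widest regions of acetylation of lysine 27 on histone H3 (H3K27ac) in Oli-neu cells were chosen by peak width. Every peak of 2000 bp or more was taken from the list of proliferating cells and from the list of differentiating cells, and wide peaks that shared at least 1 base were merged into a domain. This gave 1536 domains, against 48418 regions when all peaks of both lists were merged in the same way. The domains came from 793 of the 28924 peaks of the proliferating list (2.74%) and 964 of the 27965 peaks of the differentiating list (3.45%). Those wide peaks held 1.95 of the 22.0 Mb under proliferating peaks (8.84%) and 2.36 of the 23.5 Mb under differentiating peaks (10.0%).

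The study examined the enzyme PAD2 in oligodendrocytes, the cells that make myelin, and mapped H3K27ac by chromatin immunoprecipitation and sequencing in Oli-neu, a mouse cell line derived from embryonic oligodendrocyte progenitors and labelled as strain C57BL/6. Both groups carried no knockdown. Proliferating cells were kept with bFGF at 10 ng/ml, Pdgf-BB at 1 ng/ml, T3 at 340 ng/ml and thyroxine at 400 ng/ml. Differentiating cells received the erb inhibitor PD174265 at 1 µM for 1 day by the labels, whereas the culture methods of the study describe a longer treatment. Their labels list the same T3 and thyroxine as those of proliferating cells. They also list the same bFGF and Pdgf-BB, although the culture methods describe differentiation medium without growth factors. Each state had 1 library from 1 line, no input library is named, and the 3 siCtr and 3 siPadi2 ATAC-seq samples were not analysed here. Therefore no value below has a replicate, no test between the states was run, and the intervals given for shares are 95% exact (Clopper-Pearson) intervals that cover counting error only. The files give peak positions and 3 values a peak but no read counts, and how deeply each peak was sequenced is unknown.

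H3K27ac is laid down by the acetyltransferases p300 and CBP on nucleosomes beside active promoters and enhancers. Most marked stretches span a few nucleosomes, while wider stretches and rows of neighbouring enhancers are known from genes with a central role in the identity of a cell. In the oligodendrocyte lineage such genes include Sox10 and Olig2, transcription factors that set the fate of the progenitors.

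The reference sequence under the domains took several forms, and 5 stretches are shown because the domains at them are described again with their values. CpG dinucleotides are in capitals, and the first 3 stretches are the 200 bases before the transcription start site (TSS) of a gene whose domain was among the listed regulators (GRCm38, chr15:79165241-79165440 on the minus strand for Sox10, chr15:61985191-61985390 on the plus strand for Myc, chr6:134920201-134920400 on the plus strand for Cdkn1b). The fourth is the centre of a domain inside the Sox6 gene, away from annotated exons (chr7:115667758-115667957, plus strand), and the last is 1 repeat unit of 234 bases under a domain on satellite sequence (chr9:3002402-3002635, plus strand).
Sox10: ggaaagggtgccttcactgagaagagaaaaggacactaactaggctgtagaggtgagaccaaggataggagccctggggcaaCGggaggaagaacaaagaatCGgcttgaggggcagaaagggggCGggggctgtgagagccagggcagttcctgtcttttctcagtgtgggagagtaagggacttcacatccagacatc
Myc: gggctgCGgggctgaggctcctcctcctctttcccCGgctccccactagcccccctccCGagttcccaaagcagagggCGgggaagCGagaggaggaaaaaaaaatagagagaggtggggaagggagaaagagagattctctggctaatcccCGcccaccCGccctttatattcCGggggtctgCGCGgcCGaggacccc
Cdkn1b: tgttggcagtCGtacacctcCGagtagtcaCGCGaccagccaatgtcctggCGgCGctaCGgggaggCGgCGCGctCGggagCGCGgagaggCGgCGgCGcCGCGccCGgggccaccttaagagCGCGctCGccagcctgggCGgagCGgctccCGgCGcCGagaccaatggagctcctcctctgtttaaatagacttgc
Sox6 domain: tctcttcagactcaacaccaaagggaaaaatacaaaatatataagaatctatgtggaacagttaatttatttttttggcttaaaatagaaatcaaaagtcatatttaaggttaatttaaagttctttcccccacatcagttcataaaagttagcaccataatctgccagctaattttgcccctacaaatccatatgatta
chromosome 9 repeat: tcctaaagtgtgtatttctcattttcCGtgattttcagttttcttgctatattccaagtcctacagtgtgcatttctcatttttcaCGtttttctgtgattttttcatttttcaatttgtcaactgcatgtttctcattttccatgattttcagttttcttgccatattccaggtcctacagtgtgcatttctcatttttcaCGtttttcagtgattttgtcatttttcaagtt
The Cdkn1b stretch held 27 CpGs and the Myc stretch 11. The Sox10 stretch held 3, as did the satellite unit, and the Sox6 stretch held 0.

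Wide peaks had a median width of 2280 bp in proliferating and 2289 bp in differentiating cells, and the merged domains ran from 2000 to 13892 bp with a median of 2296 bp. Only 165 domains held a peak of 3000 bp or more, 19 held one of 4000 bp or more and 5 held one of 5000 bp or more. The threshold fell within a continuous range of widths. The 3 proliferating peaks just inside it, nearest to the start sites of Derl1, Ppm1b and Cited2, were 2000, 2001 and 2002 bp wide, and the 3 just outside, nearest to Rnf34, Arid5a and Wdr60, were 1998, 1999 and 1999 bp. In the differentiating list 3 peaks of 2000 bp, nearest to Atxn1, Tbc1d22a and Erp27, were just inside, and peaks of 1998, 1999 and 1999 bp, nearest to Ccdc3, Rcor3 and Kmt2e, were just outside.

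Of the 1536 domains, 460 overlapped a promoter region (29.9%, interval 27.7 to 32.3). A promoter region was set for each protein-coding gene of GENCODE M21 as the 3000 bp before and the 100 bp after its TSS. Each gene had a single TSS, its outermost annotated start, so starts of its other transcripts were not counted. Among all merged regions the share over a promoter region was 13.8%. By list, 249 of the 793 wide proliferating peaks (31.4%, interval 28.2 to 34.8) and 300 of the 964 wide differentiating peaks (31.1%, interval 28.2 to 34.1) overlapped one, where all peaks of the lists gave 15.8% and 19%. A longer peak touches a promoter region more easily, and width is the property the domains were chosen by. The share did not rise evenly with width. It was 9.38% for proliferating peaks under 500 bp, 30.8% for those of 1500 to 1999 bp, 30.8% again for those of 2000 to 2499 bp and 40.9% (interval 30.5 to 51.9) for the 88 of 3000 bp or more. In the differentiating list the same widths gave 11.1%, 30.1%, 29.4% and 37.9% (interval 28.5 to 48.0, 103 peaks), so peaks just under the threshold touched promoter regions about as often as peaks just over it.

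**Figure D1:**
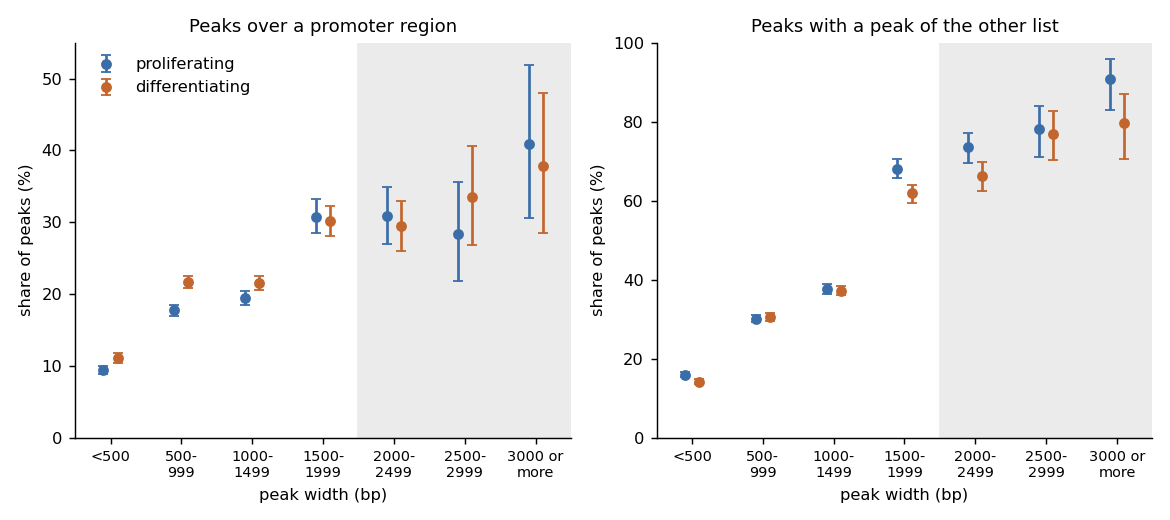
Share of peaks over a promoter region (left) and share with a peak of the other list at the same place (right), in percent, by peak width in bp. Points are the peaks of 1 list in 1 width range, bars are 95% exact binomial intervals, and grey marks the widths of the domains; the promoter share of peaks of 1500 to 1999 bp was 30.8% and 30.1%, and that of peaks of 3000 bp or more 40.9% and 37.9%.

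The promoter domains covered 545 protein-coding genes of 21951 (2.48%), whereas 7430 genes (33.8%) had a promoter region under a peak of any width. A single promoter region lay under 388 domains, 63 domains covered 2 and 9 covered 3 or more. Among the latter were a domain over C730034F03Rik, Chkb, Cpt1b and Gm44502 on chromosome 15, where Chkb codes for choline kinase beta and Cpt1b for a carnitine palmitoyltransferase, and a domain over Ddit3 and Mbd6 on chromosome 10, where Ddit3 codes for the stress factor CHOP. This domain and one over Hdlbp and Sept2 were counted with 3 because the annotation holds Ddit3 and Sept2 as 2 genes each. The TSS itself lay inside 410 domains (26.7%). Where a wide peak held a single protein-coding TSS, the peak reached further into the gene than before it, with a median of 940 bp upstream and 1323 bp downstream in 174 proliferating peaks and 1033 and 1302.5 bp in 230 differentiating peaks. The downstream part was the longer one in 106 of the 174 (60.9%) and in 129 of the 230 (56.1%).

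Genes of other kinds also had their start under domains. With genes of every biotype counted, 580 domains (37.8%) overlapped a promoter region, and 120 of these met only noncoding genes or pseudogenes. The genes included 57 lincRNAs, 71 antisense RNAs and 23 miRNAs. Their shares among all annotated genes of each kind were not worked out, so these counts do not show how often such starts lie under a domain. Because the lists carry no strand, a domain at a pair of genes that start near each other cannot be assigned to either.

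Lineage transcription factors gave 6 of 32 listed genes with the promoter region under a domain (Sox10, Sox2, Sox11, Olig1, Olig2 and Id1), while 23 of 32 had a promoter peak of any width. Sox10 (ENSMUSG00000033006.10), a factor required for oligodendrocyte maturation, lay under the domain chr15:79163097-79166750, which holds the stretch printed above. Its peak was 2743 bp wide in proliferating cells at 2.47-fold enrichment and a −log10 q of 4.78, and 3654 bp wide in differentiating cells at 2.23-fold and 4.50. Sox2, a factor of neural progenitors, had peaks of 2274 bp and 2975 bp at 2.87-fold and 2.66-fold. For both genes the wider peak was in the differentiating list and the higher enrichment in the proliferating list.

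The Olig genes, bHLH factors of the lineage, were marked beside their start sites. The Olig1 domain (chr16:91269792-91272361) began 20 bp downstream of the TSS, with a peak of 2499 bp at 3.24-fold in proliferating cells and 2048 bp at 3.09-fold in differentiating cells. The Olig2 domain (chr16:91221818-91223962) ended 1495 bp upstream of the TSS, with peaks of 1569 bp and 2145 bp, so it was wide only in the differentiating list. Sox11, a SoxC factor of immature neural cells, went the other way with 2251 bp in proliferating and 960 bp in differentiating cells. Id1, which codes for an inhibitor of bHLH factors, had a peak of 2251 bp at 3.16-fold in differentiating cells and no proliferating peak at the domain.

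A further 5 factors of this list (Sox6, Sox4, Nfia, Nfib and Nfix) had domains over the gene but outside the promoter region at its outermost start. Whether these domains cover starts of other transcripts of the gene was not looked at. With every transcript's TSS, 626 of the 1536 domains overlapped a promoter region. The Sox4 domain, centred 1.79 kb past the TSS, was 2579 bp wide in proliferating and had a peak of 1065 bp in differentiating cells. The domains of Nfia, Nfib and Nfix, nuclear factor I genes, were likewise wide in proliferating cells only, at 2869, 2129 and 2527 bp beside 344, 1600 and 1780 bp in differentiating cells. The Nfia domain also covered the start of E130114P18Rik on the other strand, so it counts among the promoter domains through that gene. Among the remaining genes of the list, Myrf, the regulator of myelin genes, had a differentiating promoter peak of 1867 bp and Hes1, a target of Notch, had peaks of 1921 and 1348 bp, all below the threshold.

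Surface genes of the precursors had a promoter domain in 3 of 19 cases (Ptprz1, Lhfpl3 and Fgfr2), and 8 of 19 had a promoter peak of any width. Ptprz1, a receptor phosphatase of oligodendrocyte precursors, had peaks of 2083 bp at 4.45-fold in proliferating cells and 2527 bp at 3.50-fold in differentiating cells (chr6:22875058-22877591). The proliferating value ranked among the 10 highest enrichments of the wide peaks of that list. Fgfr2, a fibroblast growth factor receptor, had peaks of 2054 and 2590 bp, and Lhfpl3, a tetraspan membrane protein gene, had peaks of 2060 and 1143 bp. Cspg4, which codes for the proteoglycan NG2 of the precursors, held 2 domains over the gene, centred 2.33 and 15.9 kb past the TSS. The first, which also overlapped the promoter region of Odf3l1, had a peak of 3584 bp in proliferating and 1278 bp in differentiating cells, and the second 2488 and 3081 bp. Cspg5, Cntn1 and Notch1 also held a domain away from their own promoter region, which in Notch1 was 3383 bp wide in proliferating and 2086 bp in differentiating cells.

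Of 20 myelin genes 1 had a promoter domain (5%, interval 0.127 to 24.9), where 2.48% of all protein-coding genes had one. This was Qk, which codes for an RNA-binding protein of myelinating cells, with peaks of 2241 bp at 3.75-fold and 2898 bp at 2.79-fold, and 3 of the 20 had a promoter peak of any width in either list. Another was Ugt8a, a galactosyltransferase of myelin lipid synthesis, at 1271 and 1065 bp. Only the outermost start of each of the 20 genes was looked at, so a peak at another transcript's start would be missed. Bcas1 and Tspan2 held domains inside the gene, centred 21.7 and 28.6 kb past the TSS. The Bcas1 domain, in a gene of early myelinating cells, was wide in both lists with peaks of 2050 and 2609 bp.

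As a check of the labelled cell type, 3 of 11 markers of the oligodendrocyte lineage (Sox10, Olig1 and Olig2) had a promoter domain. No other of the 11 had a peak of any width at the promoter region of its outermost start, and starts of other transcripts, in Mbp among them, were not looked at. None of 16 markers of other cell types had one (upper limit 20.6%), and 3 of the 16 had narrower peaks. These included Slc1a3, a glutamate transporter of astrocytes, with 1070 bp in proliferating cells, and Syt1, of synaptic vesicles, with 788 bp in differentiating cells. Of all protein-coding genes 2.48% had a promoter domain, so the lack of one at 16 markers cannot tell cell types apart. A promoter peak of any width was found for 27.3% of the lineage markers and 18.8% of the others, beside 33.8% of all protein-coding genes.

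Immediate early and growth response genes gave 5 of 27 with a promoter domain and 18 of 27 with any promoter peak. Myc, the growth regulator whose upstream stretch is shown above, had nearly the same peak in both states (chr15:61984068-61987569), 3480 bp at 2.48-fold in proliferating cells and 3327 bp at 2.44-fold in differentiating cells. Dusp6, a phosphatase of the ERK pathway, had 3390 bp and 2137 bp. Jun, a subunit of AP-1, had 1881 bp and 2976 bp, Klf6 1234 bp and 2067 bp, and Zfp36l2, an mRNA decay factor, 1950 bp and 2257 bp. Jun, Klf6 and Zfp36l2 passed 2000 bp only in differentiating cells, and the proliferating peaks of Jun and Zfp36l2 were just under it. Of all 1536 domains, 452 were wide in differentiating cells with a narrower proliferating peak, 385 the other way and 220 in both lists. Among genes without a domain, Jund had a differentiating promoter peak of 1930 bp, and Fos, Egr1 and Junb had promoter peaks of at most 1599 bp.

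Of 14 cell cycle genes 2 had a promoter domain and 9 had any promoter peak. Ccnd1, the cyclin D1 gene, had peaks of 3362 bp at 2.50-fold in proliferating cells and 2021 bp at 2.83-fold in differentiating cells. Cdkn1b, which codes for the inhibitor p27, had 2549 bp at 3.16-fold and 1690 bp at 3.40-fold (chr6:134919625-134922173). Both were wider in the proliferating list and had the higher enrichment in the differentiating list. Ccna2 and Mki67, genes of cycling cells, had narrower promoter peaks of 1131 bp in proliferating and 279 bp in differentiating cells.

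Among highly expressed housekeeping genes 22 of 24 had a promoter peak and 4 (Actb, Eef2, Tuba1a and Hnrnpa2b1) had a domain, a share of 16.7% (interval 4.74 to 37.4). Of all protein-coding genes 2.48% had a domain. Of those with a promoter peak 7.34% had one, beside 4 of the 22 here. Actb, beta-actin, had peaks of 2433 bp and 3546 bp that overlapped only in part, since the merged domain spanned 4231 bp. Tuba1a, a tubulin, had 2448 bp and 2457 bp. Eef2, the elongation factor, had 2733 bp and 2150 bp. Gapdh, Vim and Hsp90ab1 had promoter peaks of at most 1320, 1968 and 1813 bp.

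Ribosomal protein genes, taken by symbol, had a promoter peak in 65 of 101 cases and a domain in 2. One of these, Rpl13a, codes for a ribosomal protein and had peaks of 1446 and 2200 bp. The other, Rps6ka2, matched by name but codes for a kinase, and the 101 and the 65 also hold other kinase genes such as Rps6kb1. Replication-dependent histone genes gave 9 of 67 with a domain and 51 with any promoter peak, but the 9 lay under 4 domains of clustered genes. The domain over Hist2h2ab, Hist2h2ac and Hist2h2be was wide in both lists with 2093 and 2247 bp. Hist1h1c, with 2395 and 1123 bp, and the domain over Hist1h2ap, Hist1h2br and Hist1h4n, with 2378 and 1294 bp, were wide in proliferating cells only. Histone genes are close copies of each other, and by the study's methods reads that map to several places were not retained.

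In the list of chromatin enzymes and Padi genes 1 of 23 had a promoter domain and 15 had any promoter peak. Brd2, a reader of acetylated histones, had peaks of 2712 bp at 2.90-fold in proliferating cells and 3071 bp at 2.86-fold in differentiating cells. Kdm6b, a demethylase of H3K27, held a domain centred 3.08 kb past its TSS with peaks of 2779 and 3227 bp. Padi2, the gene of PAD2, held a domain 27.05 kb past its TSS with 3031 bp in proliferating and 1597 bp in differentiating cells, at −log10 q of 16.2 and 17.8. Padi3 held one of 2263 bp in differentiating cells with no proliferating peak at the same place. Smarcc1 and Smarcd1, subunits of a chromatin remodelling complex, also held a domain within the gene, and the one in Smarcd1 lay at the start of Gpd1.

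Of 9 listed long noncoding RNAs, 3 had a domain at the start, namely Neat1, Malat1 and Gm26917, and 5 had a peak of any width there. The share among all noncoding genes was not worked out, so this count cannot be set against a background. Neat1, the scaffold of paraspeckles, had peaks of 5209 bp at 2.002-fold and 4596 bp at 2.06-fold (chr19:5843948-5849300), the fifth by the width of its widest peak. Malat1 had 1429 bp and 2585 bp. Gm26917 lay beside ribosomal RNA sequence and is described with the repeats.

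**Figure D2:**
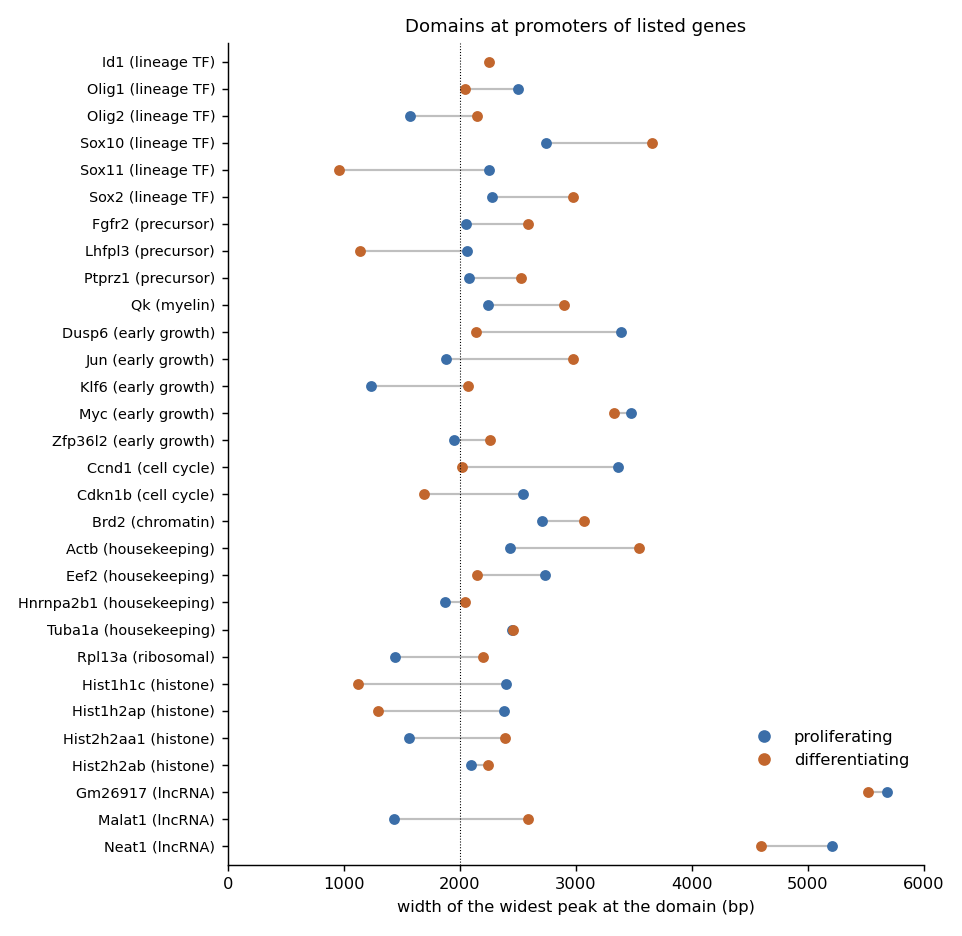
Width in bp of the widest peak of each list at the domains over promoter regions of listed genes, with 1 row a domain for the histone clusters and the list of each gene in brackets. Blue points are proliferating cells, orange points differentiating cells, and the dotted line is the threshold of 2000 bp; Sox10 went from 2743 to 3654 bp and Ccnd1 from 3362 to 2021 bp, and Id1 has no proliferating point.

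No list was set against chance, because the lists were drawn up with results of these data known. Beside the 2.48% of all protein-coding genes, the lists of protein-coding genes other than the cell type markers ranged from 1.98% to 18.8%. The lowest was the list of ribosomal protein symbols, which includes kinase genes, and the highest was that of lineage factors. With so few genes the counting intervals were wide, at 7.21% to 36.4% for the lineage factors. A domain marks chromatin and gives no RNA level.

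Most domains lay outside promoter regions. Of the 1076 such domains, 707 overlapped a gene (46.0% of all domains), 344 of them without touching an exon, and 369 were intergenic (24.0%). Their nearest protein-coding TSS was a median of 40450 bp away, 191 lay within 10 kb of one and 294 lay more than 100 kb away. Within 10 kb, 131 of the 191 were downstream of the start. All 36 within 1000 bp were downstream, as the promoter region covers the upstream side. Elovl6, a fatty acid elongase, was of this kind, with a domain that began 473 bp past its TSS and peaks of 3601 and 4186 bp. Chd3, a nucleosome remodeller, had a domain that began 134 bp past its TSS, with peaks of 1989 bp in proliferating and 4733 bp in differentiating cells. Another was Kcnj10, which codes for a potassium channel of glia and held 4 domains over its 32.9 kb.

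Most genes with a domain held a single one. Of 1061 protein-coding genes with at least 1 domain over them, 946 had 1, 99 had 2 and 16 had 3 or more. The genes named here were picked after their counts were seen. Lhfpl3 had 6 over 530 kb, including the promoter domain given above and one at 420 kb past the TSS with peaks of 3187 and 3029 bp and −log10 q of 14.0 and 17.6. Sox6, a SoxD factor of the precursors, had 5 over 568 kb and none at its promoter region. All 5 had a peak in both lists. The one whose centre is printed above (chr7:115666446-115670240) was wide in both, with 2801 bp at 2.90-fold and 3772 bp at 2.49-fold, and the others were wide in 1 list each, at 1814 and 3263, 2111 and 1347, 2236 and 1732, and 1481 and 2208 bp. Zcchc24 had 4 over 57.4 kb, and Tnr, which codes for tenascin-R of the glial matrix, had 3.

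Neighbouring domains also formed runs, defined as domains no more than 50 kb apart. There were 1182 single domains, 116 pairs, 25 runs of 3 and 9 longer runs. The longest held 8 domains over 127 kb on chromosome 15 between Wnt7b, a Wnt ligand, and Ppara, a lipid-sensing nuclear receptor. Of these, 4 were wide in both lists, 0 lay at a promoter region, and 3 lay over the noncoding gene Lncppara. The widest of the 8 (chr15:85610285-85614355), 27.8 kb upstream of the Wnt7b TSS, had peaks of 3672 bp at 2.41-fold and 3244 bp at 2.42-fold. The last 2 of the run lay side by side and were each found in 1 list, 2119 bp in differentiating cells and 2074 bp in proliferating cells.

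The Sox10 domain belonged to a run of 6 over 74.2 kb. The other 5 lay over Polr2f and the noncoding gene Gm10863. Upstream of Sox10 by 27.3 kb, a domain had peaks of 1872 bp and 2116 bp at 3.47-fold and 3.39-fold with −log10 q of 8.05 and 11.2, higher than at the Sox10 promoter itself. The next (chr15:79200566-79203560) was wide in both lists at 2711 and 2613 bp, and the last 2, toward Pick1, were wide in proliferating cells at 2390 and 2427 bp beside 1631 and 1526 bp. The Olig1 and Olig2 domains stood in a run of 5 over 115 kb. In it, domains 31.9 kb upstream of Olig2 (2098 and 2729 bp) and 5073 bp upstream of Olig1 (2032 and 2175 bp) were wide in both lists, and one 33.8 kb past Olig1 had 2542 bp in proliferating and 1746 bp in differentiating cells.

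The Ptprz1 promoter domain had 2 companions, 79.1 and 40.3 kb upstream, with 2311 and 2450 bp for the first and 2600 and 1397 bp for the second. The Tnr run of 3 lay within the gene and had 2 domains wide in both, one with 3549 and 2491 bp.

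**Figure D3:**
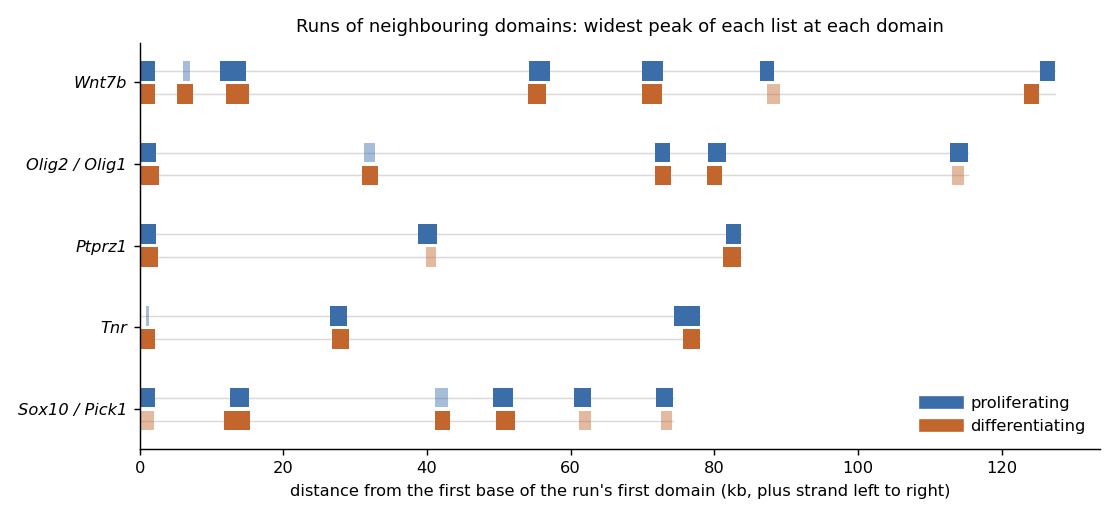
Position and width of the widest peak of each list at every domain of 5 runs, in kb from the first base of the run. Blue bars are proliferating and orange bars differentiating peaks, and pale bars are peaks under 2000 bp; the Wnt7b run has 8 domains over 127 kb and the Olig run 5 over 115 kb, and a domain without a bar in a colour had no peak in that list.

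The other list had a peak at most domains. Of the wide proliferating peaks, 606 of 793 (76.4%, interval 73.3 to 79.3) shared at least 1 base with a differentiating peak, and of the wide differentiating peaks 672 of 964 (69.7%, interval 66.7 to 72.6) shared one with a proliferating peak. Among all peaks these shares were 29.2% and 30.1%, and among all merged regions 17.4% held peaks of both lists where 1057 of the domains (68.8%) did. A wider peak meets another more often by its length alone, and the share rose with width in each list. The counterpart was itself 2000 bp or more in 221 of 793 (27.9%) and 220 of 964 (22.8%). Its median width was 1686.5 bp at wide proliferating peaks and 1575 bp at wide differentiating peaks, and it covered a median of 64.9% and 62.5% of the wide peak. More than 1 counterpart was found for 17 and 34 wide peaks.

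In all, 220 domains were wide in both lists. Another 385 were wide in proliferating cells with a narrower differentiating peak (median 1289 bp), 452 were wide in differentiating cells with a narrower proliferating peak (median 1170 bp), 187 were wide in proliferating cells with no differentiating peak and 292 were wide in differentiating cells with no proliferating peak. Promoter regions lay under 91 of the 220 (41.4%, interval 34.8 to 48.2), 142 of the 385 (36.9%), 168 of the 452 (37.2%), 18 of the 187 (9.63%, interval 5.81 to 14.8) and 41 of the 292 (14.0%, interval 10.3 to 18.6). Seen from the other side, 401 of the 460 promoter domains (87.2%, interval 83.8 to 90.1) had peaks of both lists, against 656 of the 1076 other domains (61.0%, interval 58.0 to 63.9). The median widths of promoter and other domains were 2330.5 and 2282.5 bp, and the part of width in this difference was not tested.

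The significance of the peaks moved with these classes. The median of the higher −log10 q was 3.90 for domains wide in both, 2.43 and 2.54 for those with a narrower counterpart and 1.67 and 1.60 for those with none. Domains with a counterpart take the higher value of both lists, whereas domains without one have a value from a single list. The classes are therefore not compared on equal terms. A value of 5 or more was reached by 67 of 220, 36 of 385, 32 of 452, 0 of 187 and 1 of 292 domains, in the same order. The medians of domains without a counterpart thus lay below the lower quartile of all wide peaks (1.78 in proliferating, 1.72 in differentiating cells). The lowest −log10 q of a wide peak was 1.08 in each list, and the part of the calling limit in the differences between the lists was not tested.

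Where both lists had 1 wide peak at a domain, which was so at 219, the widths were close. The median was 2448 bp in proliferating and 2491 bp in differentiating cells, 119 were wider in differentiating and 100 in proliferating cells, and the difference (differentiating minus proliferating) ran from −1341 to 1614 bp with a median of 22 bp.

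**Figure D4:**
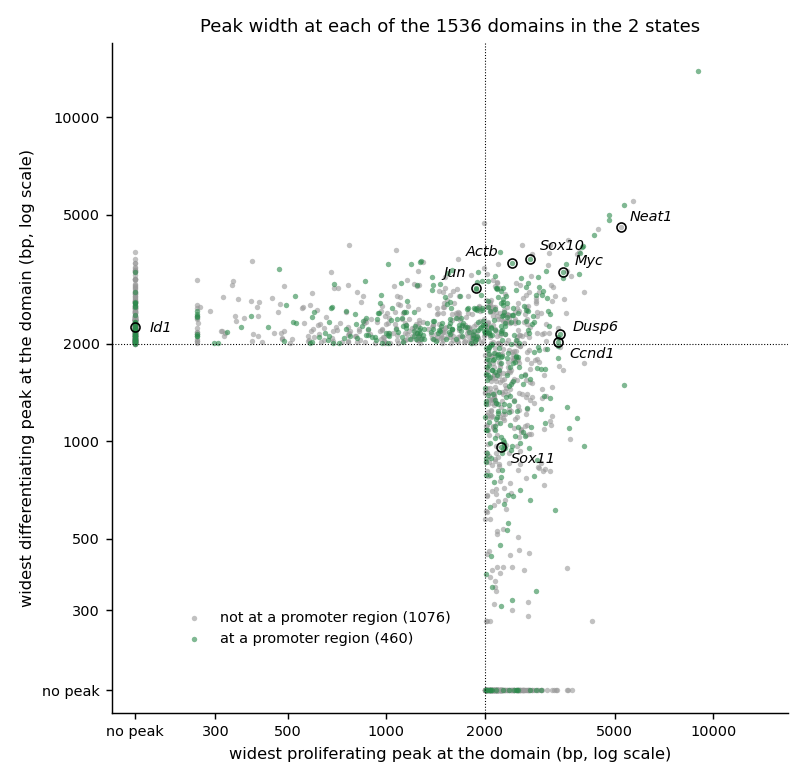
Width in bp of the widest proliferating peak (horizontal, log scale) and the widest differentiating peak (vertical, log scale) at each of the 1536 domains, with dotted lines at 2000 bp. Green points lie at a promoter region and grey points do not, points on the lines marked no peak lack a peak in that list, and circles are named genes; Neat1, Myc and Sox10 lie where both peaks are wide and Id1 has no proliferating peak.

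The largest width differences between the lists were found at the following sites. A domain in the Chl1 gene, which codes for a cell adhesion molecule, had 4260 bp in proliferating and 279 bp in differentiating cells, with −log10 q of 1.40 and 1.59. The width of 279 bp is the smallest of any peak in the differentiating list. A domain in Xylt1, a xylosyltransferase gene, had 3565 and 407 bp, with −log10 q of 1.87 and 2.38. In the other direction, a domain 2566 bp past the start of Apc2, a gene of Wnt signalling in neurons, had 768 bp in proliferating and 4041 bp in differentiating cells, and one 15560 bp upstream of Ptma had 389 and 3595 bp. The remaining one of the 3 largest in each direction was a satellite domain on chromosome 9.

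The 10 widest domains with a peak in a single list were at most 3831 bp wide, and none lay at a promoter region. The widest, 86450 bp from the TSS of Timp3 and inside the gene Syn3, was called in differentiating cells at 3.12-fold and a −log10 q of 1.84. The next, in Ppp2r2c, was called in proliferating cells with 3689 bp at 2.84-fold and 1.63. Others in differentiating cells lay at Zfyve28, Plppr1, Hgf, Dnmbp, Dmtf1 and Cntn2, and others in proliferating cells at Tuba3b and Grik2. Their −log10 q lay between 1.27 and 1.84. Cntn2 codes for an adhesion molecule found at myelinated axons, and its peak of 3386 bp lay 4567 bp from the TSS.

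Wide peaks were not the most enriched. Their median enrichment was 3.12-fold in proliferating and 2.98-fold in differentiating cells, below the 3.33-fold and 3.13-fold of all peaks, while their median −log10 q was higher (2.37 and 2.30 beside 1.93 and 1.89). A −log10 q of 5 or more was found for 9.21% and 9.44% of wide peaks, and for 4.35% and 5.73% of all. Enrichment is given over the whole peak, and fell with width to medians of 2.76-fold and 2.71-fold at 3000 bp or more. The highest enrichment of a peak of 2000 bp or more was 5.53-fold, in a differentiating peak of 2594 bp over the promoters of Med16, a Mediator subunit, and Gm26602. The proliferating peak there was 682 bp wide at 5.80-fold. Brox had the highest value of a wide proliferating peak, 5.46-fold over 2826 bp, beside 5.84-fold over 778 bp in differentiating cells. Klf7, a Krüppel-like factor of neural cells, had 5.22-fold over 2351 bp in differentiating cells and 5.14-fold over 1397 bp in proliferating cells. At Med16, Brox and Klf7 the enrichment of both lists was close while the called width was not. Ncam1, a neural adhesion molecule, had 4.35-fold over 2129 bp in differentiating cells and no proliferating peak.

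The base composition differed between promoter domains and the others. The median GC content was 56.6% in promoter domains and 46.9% in the rest, and the ratio of observed to expected CpGs was 0.645 and 0.212. Repeats, marked as soft-masked bases in the reference, took a median of 10.5% and 16.5%. Domains wide in both lists had a median GC content of 53.8% and a CpG ratio of 0.395, and domains with a peak in 1 list had 44.0% and 45.3%, with ratios of 0.187 and 0.195. Of the stretches shown above, Sox10 had 55% GC, Myc 63.5%, Cdkn1b 70% and the Sox6 domain 30%.

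**Figure D5:**
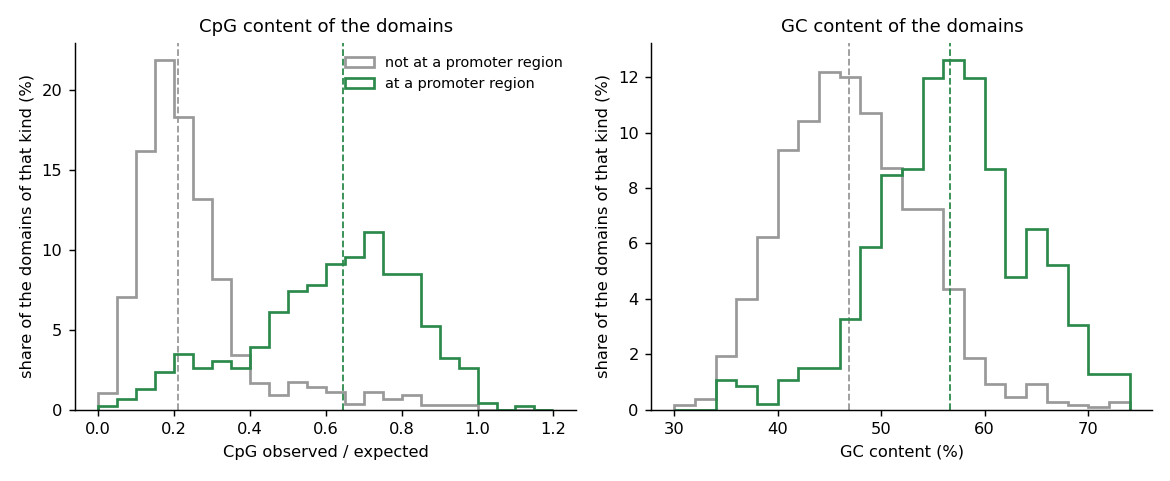
Distribution of the CpG observed to expected ratio (left) and the GC content in percent (right) over the domains, each curve as a share of the domains of its kind. Green is the 460 domains at promoter regions, grey the 1076 others, and dashed lines are the medians, 0.645 and 0.212 for CpG and 56.6% and 46.9% for GC; the few values beyond the axis ends are counted in the end bins.

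Short motifs were counted on both strands in the 300 bases from 250 before to 50 after the TSS. For the 474 start sites inside a domain, GGGCGG was found in 70.04% (interval 65.7 to 74.1), beside 67.7% of the 5511 start sites inside any peak and 43.0% of all 21938. TATAAA was found in 6.96%, beside 5.44% and 12.6%, CCAAT in 43.9%, beside 37.8% and 39.0%, and ACAAAG in 11.4%, beside 12.6% and 17.8%. CACGTG was found in 7.81%, 10.8% and 7.75%, and TGACGTCA in 1.69%, 3.83% and 2.43%. The domain windows had a median of 63% GC and 23 CpGs, the windows under any peak 62% and 23, and all windows 55% and 11. None of these motifs contains another. A match is a run of letters and does not show that a factor binds.

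Several of the widest domains held sequence that is repeated in the genome or shared with mitochondrial DNA, and 3 of the 15 widest were soft-masked over at least 50% of their length. The widest (chr9:3012107-3025998) had a peak of 13859 bp in differentiating cells and had a widest peak of 9012 bp in proliferating cells, at only 1.33-fold and 1.34-fold, and 96.6% of it was soft-masked. Shifted by 234 bases, 69.5% of its bases matched themselves, and 4 other domains on chromosome 9 with the same shift matched at 57.1% to 80.3%. They overlapped gene models such as Gm10722 and Gm17535 that add to the promoter count. The unit printed above comes from the domain chr9:2999988-3004815, with 4816 and 4819 bp at −log10 q of 54.4 and 58.3. A domain of 5344 bp at Gm10800 and Gm10801 on chromosome 2 reached 201 and 208.

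The domain chr17:39843041-39848727, at Gm26917, was 5687 bp wide in proliferating and 5518 bp in differentiating cells, and overlapped annotated ribosomal RNA. A pair of domains lay on the mitochondrial genome, which has no histones, with 4810 and 4986 bp over mt-Cytb, mt-Nd5 and mt-Nd6 and 4323 and 4344 bp over mt-Co1, mt-Co2, mt-Nd1 and mt-Nd2. On chromosome 1 a domain of 4521 bp near Col19a1 shared 98.8% of its 31-base words with the mitochondrial genome and had −log10 q of 6.85 and 19.1. How much of the signal of these regions is H3K27ac was not tested. In all, 61 domains (3.97%) were soft-masked over at least 50% of their length, 7 of them at a promoter region. Among the 9 domains with a −log10 q of 20 or more 5 were of this kind. The domain over the start of Kmt2e, which codes for a SET domain protein, was not, with 5.84% masked, peaks of 2309 and 2317 bp, and −log10 q of 30.1 and 31.05.

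Domains were spread unevenly over the chromosomes, much as the peaks were. Chromosome 15 had 169 domains (11.0% of the domains, 9.88% of the peaks), chromosome 1 had 166, chromosome 5 had 147 and chromosome 10 had 142, while the X chromosome had 10. On chromosomes 1 to 19 between 2.49% (chromosome 1) and 4.14% (chromosome 8) of the peaks were wide. The 4 wide peaks among the 5 mitochondrial peaks stand outside this range.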

How the data were processed

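H3K27ac was measured by chromatin immunoprecipitation and sequencing in 1 library of proliferating and 1 of differentiating Oli-neu cells. The authors aligned reads to GRCm38/mm10 with Bowtie 2.1.0, retained reads with a unique position, removed duplicates with SAMtools, called broad peaks in each library with MACS 2.0.10 and used BEDTools to take out blacklisted regions. The deposited lists give each peak's position and a text cell with 3 values and no header, read here in the order that MACS writes them, as the ratio of the peak to its local background (fold enrichment), the −log10 p-value and the −log10 q-value. The −log10 p was not used. The methods state a q-value cutoff of 0.05, but the deposited lists hold peaks down to a −log10 q of 1.002 (proliferating) and 1.008 (differentiating), which is looser. Genes at a peak were called here from GENCODE M21, and sequence and soft-masked bases came from the RefSeq genome file of GRCm38.

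Peaks of 2000 bp or more were merged across the lists where they shared at least 1 base, with Python 3.11.15, numpy 2.4.6, pysam 0.24.0 and samtools 1.23.1, and intervals came from scipy 1.17.1. Groups came from the labels. With 1 library a state no test was made. The overlap steps were tested on simulated data. The domains and gene lists were chosen with earlier results of these data known. Genes were named by a rule, namely the 15 widest domains, listed genes with a promoter domain, the 10 of highest enrichment, the 10 widest with a peak in a single list, the 3 largest width differences each way, the peaks at the threshold and the domains over 3 or more promoter regions. Listed genes with a domain elsewhere in the gene, listed genes without a domain, multi-domain genes, runs, and Kmt2e were chosen after their values were seen, and a few genes that the rule names are not reported here. The alternatives were other widths, a stricter q, other promoter regions, 50% coverage, wider merging, domains on repeats left out and chromosomes 1 to 19, and 1 more (q of at most 0.05) was added after seeing the data.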

Additional observations from a re-analysis of the deposited data

How the results depend on the processing

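The 8 results (the number of domains and of genes, the promoter share, and the shares with the other list's peak) were recomputed under 13 alternatives, which gave 73 values, of which 39 kept and 34 moved. The width threshold sets the numbers. At 1500 bp there were 4306 domains and 1477 promoter genes, 61.9% of domains held both lists, 71.0% of proliferating and 64.6% of differentiating wide peaks had a counterpart, and it was also wide for 32.4% and 26.95%. At 2500 bp there were 492 domains and 190 genes, the promoter share was 32.5%, 77.4% held both lists, 82.4% and 77.9% had a counterpart, and 24.1% of proliferating ones a wide one. At 3000 bp the values were 165 domains, 79 genes, 37.0% at promoters, 82.4% with both lists and 90.9% and 79.6% with a counterpart. With peaks of −log10 q of 5 or more alone, 136 domains and 83 genes remained in number, 45.6% lay at promoters, 48.5% held both lists, 69.9% and 47.3% had a counterpart and 38.4% and 29.7% a wide one. That filter takes out weaker peaks from both lists, and its part in the changed counterpart shares was not tested. With every transcript's TSS the promoter share was 40.8%, and with genes of every biotype 37.8%, with 845 genes. Where 50% of the wide peak or domain had to be covered, 40.0% of domains held both lists, and 52.2% and 43.4% of wide peaks had a counterpart. Leaving out domains on repeats (1475 domains), chromosomes 1 to 19 alone (1522), merging within 1000 bp (1535) and q of at most 0.05 (1491, added after seeing the data) moved none of the results they were run on, which were all 8 except for merging, run on 4. No paired analysis was possible because each state had 1 library. Read depth per peak is unknown, and by the study's methods the differentiating library had somewhat more uniquely mapped reads, which limits what a missing counterpart shows.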
